A study of Mus musculus with 32 samples.

Results

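The mitochondrial genome of the mouse encodes 37 genes, and all 37 were rows of the count table of 50686 genes measured in interscapular brown adipose tissue (iBAT). The genes described here are the 25 of these 37 whose symbol begins with mt- and that had at least 10 counts summed over 32 libraries. They comprised 2 ribosomal RNA (rRNA) genes, 13 protein-coding genes and 10 transfer RNA (tRNA) genes, and the remaining 12 genes were all tRNAs. Measurements came from male C57BL/6J mice, 10 weeks old, fed chow and housed at 22 °C with 12 h of light and 12 h of dark. Time is given as Zeitgeber time (ZT), where ZT0 is lights on and ZT12 lights off. iBAT was taken every 3 h from ZT0 to ZT21, from 4 different mice at each of 8 time points, and snap-frozen. For mice 22 °C is a mild cold, which all groups shared, and time of day is what the labels say differed between them.

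Mitochondrial DNA is a small circle that is transcribed from both strands into long precursors, which are cut into rRNAs, mRNAs and tRNAs, often at the tRNAs that lie between the other genes. The rRNAs build the mitochondrial ribosome, and the proteins are core subunits of respiratory complexes I, III and IV and of ATP synthase, whose other subunits are encoded in the nucleus. Brown adipocytes are packed with mitochondria and use the respiratory chain to make heat through uncoupling protein 1 (Ucp1), so that transcripts of mitochondrial DNA are abundant in this tissue. Stretches of mitochondrial DNA have also been copied into nuclear chromosomes during evolution.

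Library totals ran from 16300770 to 18254659 counts, and the 25 genes took from 18.5% to 28.2% of them (median 23.0%). Time points were distributed over sequencing lanes as ZT0, ZT3 and ZT6 on lane 2, ZT9, ZT12 and ZT15 on lane 3, and ZT18 and ZT21 on lane 4, so that lane and time of day cannot be told apart between lanes. All 9 brown adipocyte markers, Ucp1 among them, were detected at every time point, with a summed level of 3667 to 7533 CPM per mouse (CPM is the count of a gene relative to its library's TMM-scaled total). Skeletal muscle markers summed to between 3.90 and 7312 CPM, with a range of 4.91 to 5088 CPM at ZT18 and 3.90 to 1823 CPM at ZT6, and 5 libraries exceeded 10 times the median. None of the 10 muscle markers and none of the 5 blood markers had a 24 h cosine component (edgeR, and likewise at an unadjusted threshold and with DESeq2), against 1 of 9 brown adipocyte, 3 of 5 white adipocyte and 3 of 6 lymphoid markers and 36.1% of all genes. Beside lane, 1 marker of each of these last 3 lists had one, against 17.2% of all genes. In whole tissue, fewer cells of a type and less RNA per cell cannot be told apart.

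Counts were concentrated in 6 mRNAs. mt-Co1, a catalytic subunit of complex IV, held 37.9% of the counts of the 25 genes, mt-Cytb, the cytochrome b of complex III, 23.1%, and the complex I subunits mt-Nd2, mt-Nd1, mt-Nd4 and mt-Nd5 held 10.7%, 9.83%, 8.33% and 7.76%. Per kb of gene length, mt-Co1 stood at 57021 CPM, mt-Cytb at 46994 CPM and mt-Nd5 at 9928 CPM (means of 32 mice). mt-Rnr2 and mt-Rnr1, the rRNAs of the large and the small ribosomal subunit, had 2205 ± 914 and 1946 ± 659 CPM per kb (SD, n = 32), which overlapped. The rRNAs together made up 1.11% to 4.84% of the counts of the 25 genes, and the 10 tRNAs a median of 0.016%. Among mRNAs, mt-Nd6 (193 CPM per kb), mt-Co2 (95.2 CPM per kb), mt-Atp6 (79.3 CPM per kb), mt-Co3 (66.0 CPM per kb), mt-Atp8 (60.5 CPM per kb), mt-Nd3 (25.9 CPM per kb) and mt-Nd4l (13.7 CPM per kb) lay far below the 6 abundant ones.

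Sequence shared with the nucleus differed widely among these mRNAs. Of all 100-base stretches of each gene (the length of 1 read), 99.5% of mt-Co2, 99.5% of mt-Atp6, 99.9% of mt-Co3, 98.5% of mt-Nd4l and 97.6% of mt-Nd3 also occurred, letter for letter, in a transcript of an annotated nuclear gene. The shares were 60.8% for mt-Nd4, 30.8% for mt-Co1 and 3.19% for mt-Nd2, and no shared stretch was found for mt-Nd1, mt-Nd5, mt-Nd6, mt-Cytb, mt-Atp8, mt-Rnr1 and mt-Rnr2. Only annotated transcripts were searched, not the rest of the nuclear genome. The sharing involved 10 nuclear pseudogenes, 7 on chromosome 1 and 3 on chromosome 2. How reads that fit both places were counted is not stated in the sources used here, and its part in the level of the 5 mRNAs was not tested.

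**Figure D1:**
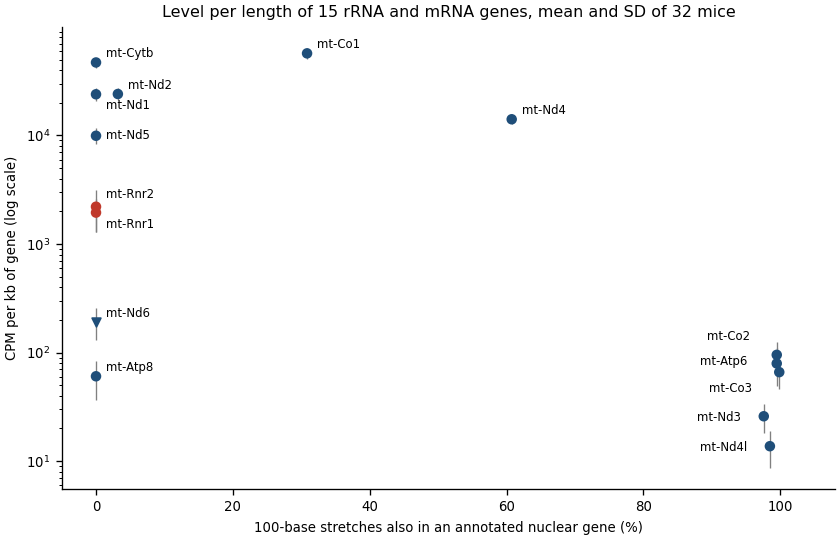
Level per length (CPM per kb of gene, log scale, mean and SD of 32 mice) of the 2 rRNA genes (red) and 13 mRNA genes (blue, triangle for the minus strand) against the percentage of their 100-base stretches that also occur in an annotated nuclear gene. The 5 genes at 97.6% or more lie at 95.2 CPM per kb or below, while mt-Atp8 and mt-Nd6 are low with no shared stretch.

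The sequences below show what a read could and could not tell apart (GRCm38, RNA strand, 5′ to 3′). The start of mt-Co2 (chrM:7013-7072, plus strand) is shown once because its copy Gm28661 (chr1:24614885-24615565, minus strand) was identical to mt-Co2 over all 681 bases aligned. mt-Nd3 (chrM:9459-9518, plus strand) and Gm28438 (chr1:24613060-24613119, minus strand) differed by the single change T3C, and mt-Co1 (chrM:6381-6440, plus strand) and Gm29216 (chr1:24616138-24616197, minus strand) by T1056A, C1057T, A1059G, A1060G, C1062A and A1066T, counted from the first base of the mitochondrial gene. Capitals mark the bases that differ.
mt-Co2: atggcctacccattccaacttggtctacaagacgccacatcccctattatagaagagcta
mt-Nd3: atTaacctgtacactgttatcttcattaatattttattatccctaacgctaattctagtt
Gm28438: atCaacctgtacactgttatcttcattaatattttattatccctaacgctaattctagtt
mt-Co1: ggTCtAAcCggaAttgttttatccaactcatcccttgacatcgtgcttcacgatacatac
Gm29216: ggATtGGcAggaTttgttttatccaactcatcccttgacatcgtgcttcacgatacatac

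Neighbouring genes also share bases with each other. The longest overlap was that of mt-Atp8, a small subunit of ATP synthase, whose 204 bases share 43 with mt-Atp6 on the same strand. mt-Nd5 and mt-Nd6 run towards each other on opposite strands and overlap by 14 bases, and mt-Ti and mt-Tq, the tRNAs for isoleucine and glutamine, overlap by 3. The library was stranded, but whether the counting used strand is not stated in the sources used here, so reads of these overlaps may have been assigned to either gene or to none. The ends of mt-Nd5 (chrM:13506-13565, plus strand) and mt-Nd6 (chrM:13552-13611, minus strand) and the whole of mt-Ti (chrM:3706-3774, plus strand) and mt-Tq (chrM:3772-3842, minus strand) are given with the overlap in capitals.
mt-Nd5: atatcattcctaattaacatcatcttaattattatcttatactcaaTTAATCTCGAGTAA
mt-Nd6: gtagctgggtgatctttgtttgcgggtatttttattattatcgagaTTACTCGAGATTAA
mt-Ti: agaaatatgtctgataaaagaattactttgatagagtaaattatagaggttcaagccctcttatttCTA
mt-Tq: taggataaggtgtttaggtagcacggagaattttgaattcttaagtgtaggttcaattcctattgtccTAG

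Oscillation was assessed first with JTK_CYCLE, which ranks the 32 libraries against cosine curves with periods of 21 and 24 h. Of 24 genes with enough counts to be tested (mt-Ta, with 36 counts, was left out), 18 oscillated at P under 0.05, against 36.4% of the 15505 genes tested in the whole table. After Benjamini-Hochberg adjustment over all genes 15 remained below 0.05. With edgeR's quasi-likelihood test, 17 of 24 had a 24 h cosine component at an adjusted p under 0.05, against 36.1% of all genes, and 20 of 24 differed between the 8 time points, against 39.8%. The median amplitude of the cosine on the log2 CPM scale was 0.39 for the 24 genes and 0.14 for all genes tested. With lane in the model, 8 of 24 had a cosine component, against 17.2% of all genes, 7 of them among the 17 above and mt-Nd5 only with lane in the model. These were mt-Rnr1, mt-Rnr2, mt-Nd1, mt-Nd5, mt-Nd6 and the tRNA genes mt-Ti, mt-Te and mt-Ty, of which mt-Nd6 and mt-Ty each passed in only 12 of 32 fits that left out 1 library. Beside lane, mt-Nd6 also missed the threshold scaled by library size alone (edgeR, adjusted p = 0.0766), scaled by mitochondrial counts (0.0793) and with no filter on low counts (0.0567). Likewise mt-Ty missed it scaled by library size alone (0.0549), with no filter (0.0561) and without the 5 libraries highest in muscle markers (0.0683). mt-Ty reached the filter's minimum of 0.574 CPM only in the 4 mice of ZT0, so that it entered these tests through the time point at which it was highest, and mt-Ts1 reached it in 5 libraries, 2 at ZT0, 2 at ZT3 and 1 at ZT18.

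The fitted peaks of mt-Nd2, mt-Nd1 and mt-Cytb lay in the light phase, those of mt-Co2, mt-Atp6, mt-Co3, mt-Nd3 and mt-Nd4l between ZT17.0 and ZT18.1, those of both rRNAs and mt-Ti between ZT20.3 and ZT20.6, that of mt-Ty at ZT22.9, and those of mt-Nd6, mt-Tt, mt-Te, mt-Tq and mt-Tp between ZT23.5 and ZT2.1. Standard errors of these peaks were between 0.517 h (mt-Nd1) and 1.60 h (mt-Ty). The measured means of both rRNAs and mt-Ti were lower at ZT21 than at ZT18 and ZT0, and highest at ZT0. Their fitted peaks are therefore not the times of their highest level. At ZT18, ZT21 and ZT0, mt-Rnr2 averaged 5251, 3214 and 5400 CPM, and mt-Ti 9.40, 7.03 and 12.8 CPM. The cosine of mt-Ty (edgeR, adjusted p = 0.0215) did not pass without replicate 2 of ZT0 (0.0855) or without the 5 libraries highest in muscle markers (0.0557), and its measured mean was highest at ZT0 (0.895 CPM) and lowest at ZT21 (0.0846 CPM). The genes that did not pass the cosine test with edgeR were mt-Co1, mt-Nd4, mt-Nd5, mt-Atp8, mt-Tm, mt-Tw and mt-Ts1. With DESeq2, mt-Co1 (adjusted p = 0.0446) and mt-Nd5 (0.0483) passed. With edgeR, mt-Nd5 also passed scaled by library size alone (adjusted p = 0.0304), and mt-Tw scaled by mitochondrial counts (0.0462).

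**Figure D2:**
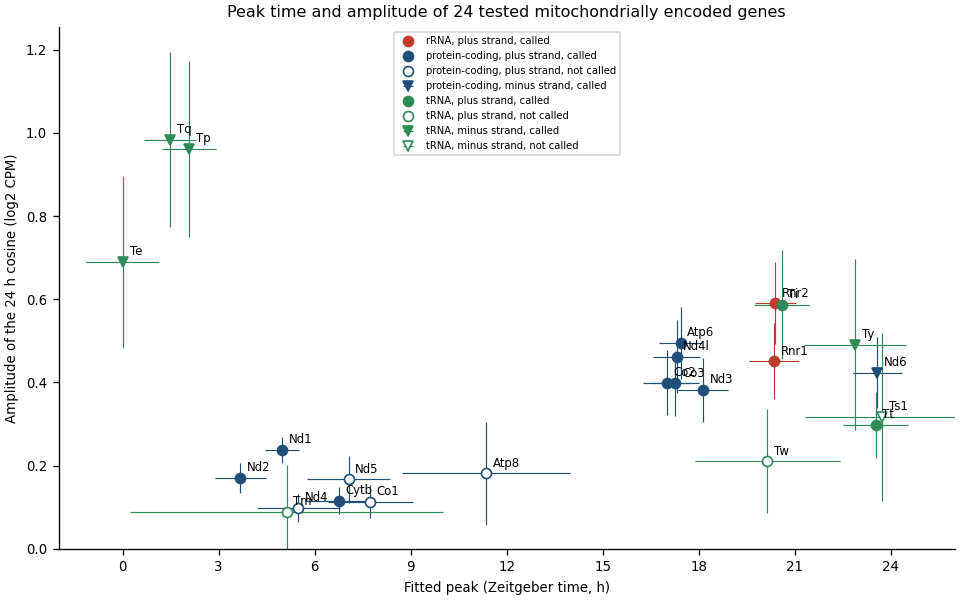
Fitted peak (Zeitgeber time, h) against amplitude of the 24 h cosine (log2 CPM) of the 24 tested genes with standard errors, by class (colour) and strand (circle plus, triangle minus), filled where edgeR's adjusted p was under 0.05. The abundant mRNAs lie at ZT3.7 to ZT7.7 with amplitudes of 0.24 or less, and the rRNAs and the 5 mRNAs shared with nuclear copies at ZT17.0 to ZT20.4 with amplitudes of 0.38 to 0.59.

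The rRNAs, which are the structural RNAs of the mitochondrial ribosome, had the lowest adjusted p of the 24 genes in the test of the 8 time points (edgeR, 2.39e-07 for mt-Rnr2 and 7.12e-07 for mt-Rnr1). At ZT18 mt-Rnr2 stood at 5999, 5593, 4292 and 5119 CPM in the 4 mice, and at ZT12 it stood at 2256, 2048, 1780 and 2242 CPM. All mice of ZT18 lay above all mice of ZT12. The level at ZT0 was as high but uneven, with 4052, 6511, 6992 and 4045 CPM, and at ZT9 it was low and even, with 2120, 2101, 1925 and 2168 CPM. mt-Rnr1 was lowest at ZT9, with 1251, 1326, 1004 and 1182 CPM, and every mouse of ZT15, ZT18 and ZT0 lay above these. Its means were 2474 ± 368 CPM (SD, n = 4) at ZT15 and 2546 ± 315 CPM at ZT18. The mean at ZT21 was 1650 ± 91.8 CPM, below both ZT18 and ZT0 (2587 ± 643 CPM).

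The fitted peak-to-trough ratio was 2.27-fold for mt-Rnr2 (edgeR, adjusted p = 4.10e-05) and 1.87-fold for mt-Rnr1 (adjusted p = 0.000625). Beside lane edgeR gave adjusted p-values of 1.23e-05 and 1.50e-05. Among time points that shared a lane, both rRNAs differed on lane 2 (edgeR, adjusted p = 0.00943 for mt-Rnr2 and 0.0286 for mt-Rnr1), on lane 3 (0.000636 and 0.00186) and on lane 4 (0.0316 and 0.0125). No other of the 22 genes tested on all 3 lanes differed on each of them. For every 100 counts in mitochondrial mRNAs there were 1.34 ± 0.192 rRNA counts at ZT9 and 4.22 ± 0.785 at ZT18 (SD, n = 4 each). Leaving out the 5 libraries highest in muscle markers, mt-Rnr1 no longer passed on lane 2 (edgeR, adjusted p = 0.120) nor mt-Rnr2 on lane 4 (adjusted p = 0.0567). With a replicate block, neither rRNA passed on lane 4 (edgeR, adjusted p = 0.0570 for mt-Rnr1 and 0.0659 for mt-Rnr2), nor mt-Rnr1 on lane 2 (0.0640). The lane 2 call of mt-Rnr1 was also lost without replicate 1, 2 or 3 of ZT0 or replicate 1 or 3 of ZT6 (highest adjusted p = 0.0953) and when scaled by library size alone (0.0545), and the lane 4 call of mt-Rnr2 without any one of 6 of the 8 libraries, all but replicate 3 of ZT18 and replicate 2 of ZT21 (highest 0.0859).

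**Figure D3:**
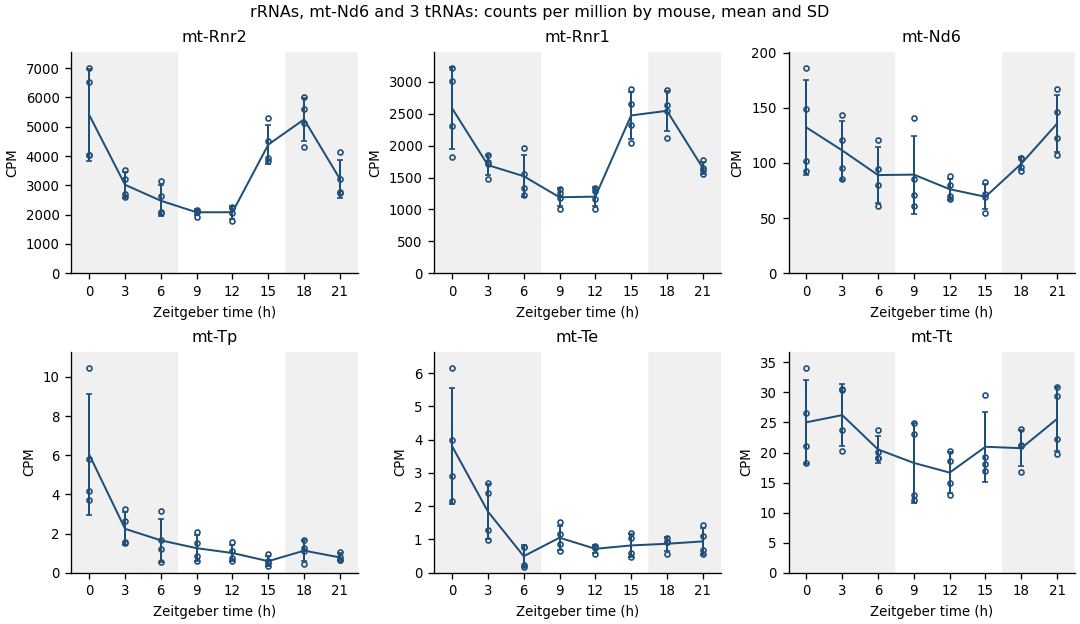
CPM by mouse (open circles), mean and SD (line and bars, n = 4) over Zeitgeber time for mt-Rnr2, mt-Rnr1, mt-Nd6 and the tRNA genes mt-Tp, mt-Te and mt-Tt, with lanes 2 and 4 shaded. The rRNAs are high at ZT0, ZT15 and ZT18 and lowest at ZT9 and ZT12, while mt-Tp and mt-Te are highest at ZT0, where the mice spread widely.

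The abundant mRNAs were lowest at ZT18 and varied by less. mt-Nd1, a subunit of complex I, had 26695, 25981, 27341 and 28783 CPM at ZT6, and 16336, 16368, 19819 and 17978 CPM at ZT18. The 4 mice of ZT6 all lay above the 4 of ZT18. Its cosine peaked at ZT5.0 with a peak-to-trough ratio of 1.39-fold, and edgeR gave an adjusted p of 1.79e-05, and 0.00213 beside lane. mt-Nd2, of the same complex, had 27390, 27028, 27823 and 29918 CPM at ZT6 against 18437, 19044, 21662 and 21545 CPM at ZT18, again without overlap, and its cosine passed (edgeR, adjusted p = 0.00261) but not beside lane (0.136).

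mt-Cytb reached 56043, 55153, 57689 and 65771 CPM at ZT9 and 42847, 41866, 46891 and 45638 CPM at ZT18, without overlap. Its cosine had an adjusted p of 0.0281 (edgeR). It was 0.0568 with muscle markers as a covariate, 0.0700 with no filter on low counts, 0.661 when scaled by mitochondrial counts, and from 0.0538 to 0.0631 without replicate 4 of ZT6, replicate 4 of ZT9 or replicate 1, 2 or 4 of ZT18. mt-Co1 was also lowest at ZT18, with 68612, 71815, 74422 and 76256 CPM, but varied among the mice of other times, from 82823 to 112126 CPM at ZT9. Its cosine did not pass (edgeR, adjusted p = 0.0753), while the test of the 8 time points did (adjusted p = 0.0175), though not without replicate 1 of ZT18 (0.0520), with muscle markers as a covariate (0.0627), without the 5 libraries highest in muscle markers (0.0728) or scaled by mitochondrial counts (0.107). mt-Nd4 (16456 ± 742 CPM at ZT18, 21886 ± 2464 CPM at ZT0) and mt-Nd5 (14363 ± 1692 CPM at ZT18, 21504 ± 493 CPM at ZT9; SD, n = 4 each) likewise passed the time-point test (edgeR, adjusted p = 0.0114 and 0.00613) and not that of the cosine, although mt-Nd5 had a cosine component beside lane (adjusted p = 0.00522). On lane 4, where ZT18 and ZT21 were sequenced together, mt-Nd1, mt-Nd2 and mt-Nd5 were lower at ZT18 (edgeR, adjusted p = 0.0268, 0.0393 and 0.0386). These calls were lost in 6, 8 and 7 of the 8 fits that left out 1 library.

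**Figure D4:**
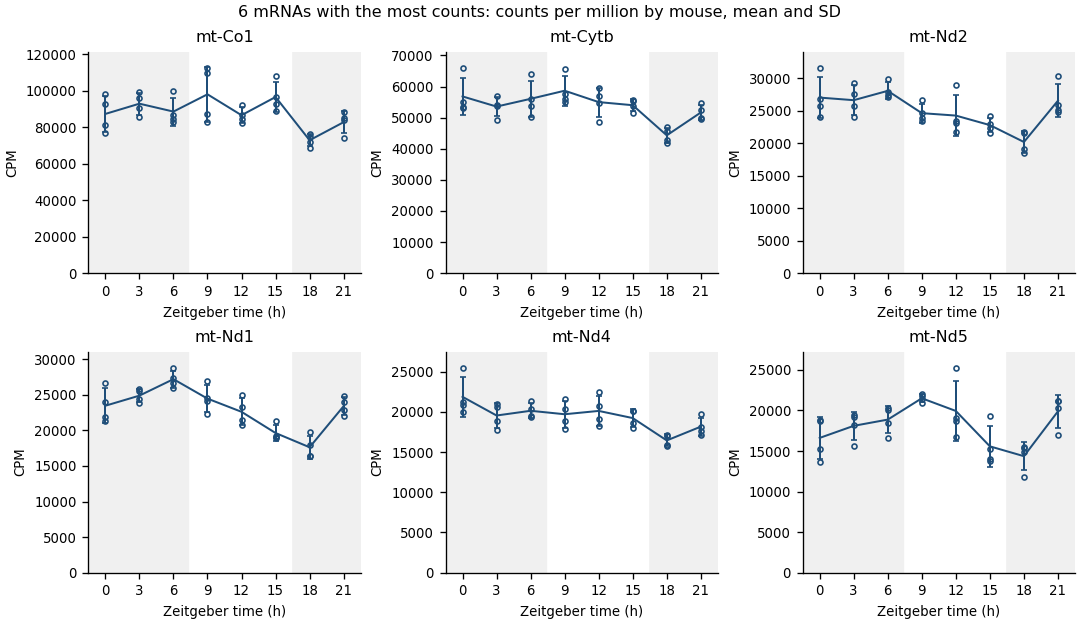
CPM by mouse (open circles), mean and SD (line and bars, n = 4) over Zeitgeber time for the 6 mRNAs with the most counts, with lanes 2 and 4 shaded. Every one of them has its lowest mean at ZT18, from 14363 CPM for mt-Nd5 to 72776 CPM for mt-Co1.

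Mid dark (ZT18) was compared with mid light (ZT6). This contrast was chosen when ZT18 was already known to have the lowest share of mitochondrial counts. The 6 abundant mRNAs make up most of that share, so their lower values at ZT18 are a description. ZT18 was sequenced on lane 4 and ZT6 on lane 2, so lane and time cannot be told apart in it. Of the 24 genes, 9 were higher and 6 lower at ZT18 (edgeR), against 8.18% and 8.68% of all genes tested. The median log2 fold change was 0.23 over the 24 genes and 0.00 over all genes. Values of the 4 and 4 mice did not overlap for 13 of the 24, against 22.9% of all genes. The 6 lower genes were the 6 abundant mRNAs, with log2 fold changes of -0.63 ± 0.08 (SE) for mt-Nd1, -0.48 ± 0.09 for mt-Nd2, -0.39 ± 0.13 for mt-Nd5, -0.34 ± 0.08 for mt-Cytb, -0.29 ± 0.08 for mt-Nd4 and -0.28 ± 0.10 for mt-Co1. Ucp1 was lower as well (log2 fold change -0.99 ± 0.29, SE, with edgeR's adjusted p = 0.0171). It was the only 1 of the 9 brown adipocyte markers called lower, and none was called higher. The median log2 fold change of the 9 was 0.01. Their sum, which includes Ucp1, averaged 5514 ± 1191 CPM in the mice of ZT6 and 4285 ± 423 CPM in those of ZT18 (SD, n = 4). Of the 5 white adipocyte markers, 1 was higher at ZT18. The 10 muscle markers had a median log2 fold change of 1.98 and sums of 460 ± 909 CPM at ZT6 and 1773 ± 2401 CPM at ZT18, whose mice overlapped. The 6 lymphoid markers had a median log2 fold change of -0.70 and sums of 4.07 ± 1.48 and 2.72 ± 0.992 CPM, which overlapped as well. The part of these cells in the result was not tested. The direction of mt-Nd4 and mt-Co1 turned when libraries were scaled by their summed mitochondrial counts, which moved every fold change up by about 0.33, to 0.032 for mt-Nd4 and 0.046 for mt-Co1, neither past the threshold. With that scaling mt-Cytb (-0.01) and mt-Nd5 (-0.08) were not called either. mt-Nd5 (edgeR, adjusted p = 0.0315) was also not called with no filter on low counts (0.0559) or without replicate 1, 2 or 3 of ZT6 or replicate 1 or 2 of ZT18. mt-Co1 (edgeR, adjusted p = 0.0455) also missed the threshold with muscle markers as a covariate (0.102), without the 5 libraries highest in muscle markers (0.0675), with no filter on low counts (0.0854), scaled by library size alone (0.101) and in 10 of 32 fits that left out 1 library.

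Those higher at ZT18 were both rRNAs, the tRNA genes mt-Ti and mt-Ty and all 5 mRNAs that share nearly their whole sequence with nuclear copies. mt-Atp6, a subunit of the proton channel of ATP synthase, had 108.1, 98.9, 105 and 83.0 CPM at ZT18 and 32.9, 33.6, 44.7 and 43.7 CPM at ZT6, a log2 fold change of 1.35 ± 0.18 (SE; edgeR, adjusted p = 9.79e-06). mt-Co2, the complex IV subunit that receives electrons from cytochrome c, had 110, 101, 114 and 91.6 CPM at ZT18 and 42.3, 38.6, 57.5 and 62.2 CPM at ZT6. Neither pair of groups overlapped. mt-Co3 (complex IV), mt-Nd3 and mt-Nd4l (complex I) had log2 fold changes of 0.97, 0.88 and 1.16 (edgeR, adjusted p = 0.000840, 0.00135 and 0.00146). The calls of mt-Ti (adjusted p = 0.0341) and mt-Ty (0.0435, with at most 22 counts in a library) were lost in 6 and 7 of 32 fits that left out 1 library, and their mice overlapped between the times. mt-Ty was not called either with DESeq2 (adjusted p = 0.0658) or with no filter (edgeR, 0.0581), nor mt-Ti scaled by library size alone (0.0512) or in a fit of the 8 libraries of these times (0.0864). Without the 5 libraries highest in muscle markers neither was called (0.0643 for mt-Ti and 0.0821 for mt-Ty). mt-Co2 and mt-Co3 were higher, and mt-Co1 of the same complex lower, at ZT18, as were mt-Nd3 and mt-Nd4l against mt-Nd1, mt-Nd2, mt-Nd4 and mt-Nd5. Beside lane, edgeR gave none of these 5 a cosine component past the threshold (1 of 5 at an unadjusted p under 0.05), against 17.2% of all genes. Scaled by mitochondrial counts, 3 of the 5 had one, against 19.7% of all genes in that fit, mt-Atp6 (edgeR, adjusted p = 0.0355), mt-Co3 (0.0297) and mt-Nd4l (0.0295), and mt-Nd4l also had one without replicate 4 of ZT9 (0.00964).

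The nuclear copies of these genes were measured beside them. mt-Co2 had 36371 counts in all and its copy Gm28661 had 38292, and in single libraries there were 89.6 to 123 counts of the copy for every 100 of the gene. For mt-Atp6 and Gm10925 this ratio was 122 to 192. Gm28661 had its lowest mean at ZT3 (52.0 ± 4.38 CPM) and its highest at ZT18 (102.5 ± 10.6 CPM), as had mt-Co2 (47.5 ± 4.43 and 104 ± 9.92 CPM; SD, n = 4 each). Across the 32 libraries, log2 counts of gene and copy had Pearson's r = 0.965 for this pair, 0.957 for mt-Co3 and Gm28437, 0.946 for mt-Atp6 and Gm10925, 0.812 for mt-Co2 and Gm13341, 0.756 for mt-Nd3 and Gm28438 and 0.730 for mt-Nd4l and Gm10222. It was 0.124 and 0.027 for mt-Co1 with Gm29216 and Gm13340, 0.052 for mt-Nd4 and Gm28439 and 0.022 for mt-Nd2 and Gm13339, copies with under 1 count for every 100 of the gene. These are descriptions over libraries that share depth and time of day. Of the 10 copies, 7 had a 24 h cosine component, against 36.1% of all genes, and 7 were higher at ZT18 than at ZT6, against 8.18% (edgeR). Beside lane, which differed between ZT18 and ZT6, none of the 10 had a cosine component, against 17.2% (1 of 10 at an unadjusted p under 0.05).

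For mt-Co1 and mt-Nd4 gene and copy differed in level. The highest means of mt-Co1 and Gm29216 were at ZT9 and ZT18, and those of mt-Nd4 and Gm28439 at ZT0 and ZT15. Gm29216, which aligned to mt-Co1 from base 1054 to its last, base 1545, had only 0.054 to 0.159 counts per 100 of mt-Co1, yet it was higher at ZT18 (log2 fold change 0.79 ± 0.17, SE; edgeR, adjusted p = 0.00215), where mt-Co1 was lower except when scaled by mitochondrial counts. Gm13340, a copy of mt-Co1 on chromosome 2, was higher as well (log2 fold change 0.84 ± 0.17, SE; edgeR, adjusted p = 0.000990). Gm28439, a copy of mt-Nd4, had a log2 fold change of 0.17 ± 0.13 (SE), which did not pass (edgeR, adjusted p = 0.429). Whether reads of these genes came from mitochondrial or nuclear RNA cannot be told apart where the sequences are identical.

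**Figure D5:**
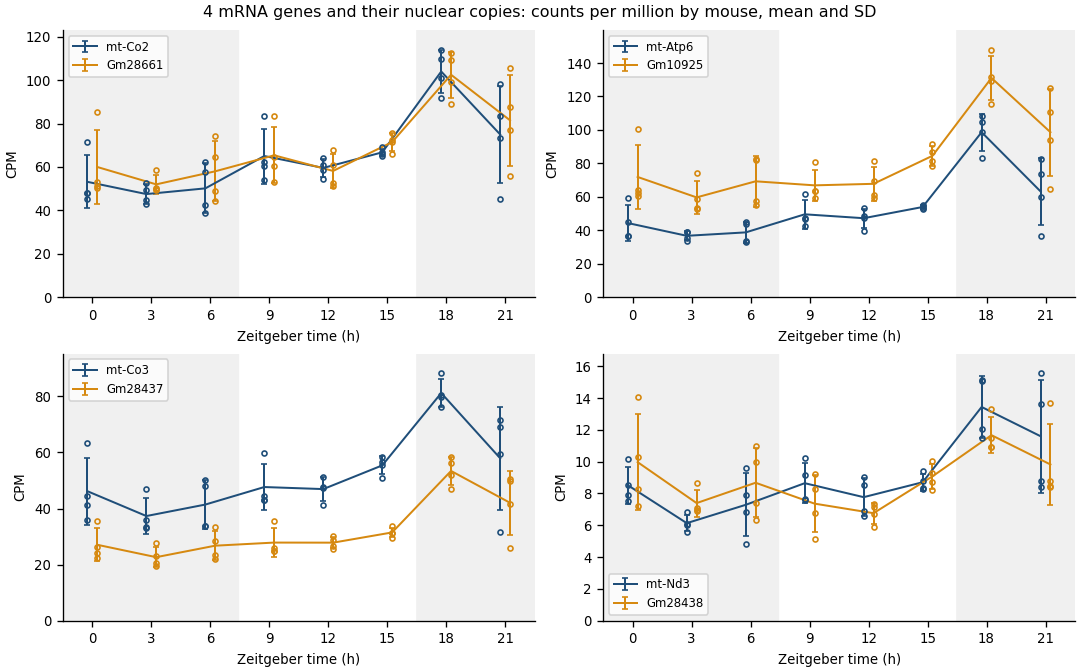
CPM by mouse (open circles), mean and SD (lines and bars, n = 4) over Zeitgeber time for 4 mitochondrial mRNA genes (blue) and a nuclear copy of each (orange), with lanes 2 and 4 shaded. In these 4 pairs, of which those of Gm28437 and Gm28438 were chosen after their values were seen, gene and copy have their highest means at ZT18, at 104 CPM for mt-Co2 and 102.5 CPM for Gm28661.

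Of the 7 genes read from the minus strand, mt-Tq, mt-Ty, mt-Ts1, mt-Te and mt-Tp had their highest mean at ZT0 and mt-Nd6 at ZT21, while mt-Ta had 36 counts in all. mt-Nd6, the complex I subunit and the only mRNA on that strand, had 185.8, 102, 92.5 and 149 CPM at ZT0, 107.5, 123, 146 and 167 CPM at ZT21, and 71.4, 82.3, 54.4 and 69.0 CPM at ZT15. Its mice at ZT0 and ZT21 all lay above those at ZT15. The cosine peaked at ZT23.6 with a ratio of 1.80-fold (edgeR, adjusted p = 0.000665, and 0.0470 beside lane, a call lost under the settings given above). mt-Tp, the proline tRNA, had 10.5, 5.81, 3.69 and 4.17 CPM at ZT0 and 0.473, 0.591, 0.350 and 0.939 CPM at ZT15, a ratio of means of 10.3-fold. mt-Te, the glutamate tRNA, had 6.16, 2.90, 3.99 and 2.17 CPM at ZT0 and 0.179, 0.237, 0.785 and 0.780 CPM at ZT6. Both tRNAs differed within lane 2 (edgeR, adjusted p = 0.0335 and 0.0101). mt-Tp did not without replicate 1 or 2 of ZT0, replicate 3 of ZT3 or replicate 3 or 4 of ZT6 (highest adjusted p = 0.118, without replicate 1 of ZT0), nor without the 5 libraries highest in muscle markers (0.0593). mt-Tp had 6 to 163 counts per library and mt-Te 3 to 96, so that counting error is large at the low end.

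mt-Tp: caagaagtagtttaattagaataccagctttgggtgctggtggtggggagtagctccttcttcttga
mt-Te: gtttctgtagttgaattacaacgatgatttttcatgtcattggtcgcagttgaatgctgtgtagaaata
These are the whole genes of mt-Tp (chrM:15356-15422) and mt-Te (chrM:14071-14139), both on the minus strand, and each is shorter than 1 read of 100 bases. mt-Tt, the threonine tRNA and the tRNA gene with the most counts (12130), lies next to mt-Tp on the plus strand. It ranged from 16.7 ± 3.38 CPM at ZT12 to 26.2 ± 5.12 CPM at ZT3 (SD, n = 4 each), with overlap among the mice. Its cosine passed (edgeR, adjusted p = 0.0118) and the test of the 8 time points did not (adjusted p = 0.125). mt-Ti, which follows mt-Nd1 on the plus strand, had 12.2, 14.1, 11.6 and 13.2 CPM at ZT0 and 4.44, 4.48, 4.01 and 4.71 CPM at ZT12 and no overlap between these times. mt-Tm and mt-Tw, for methionine and tryptophan, passed neither test, with an adjusted p of 0.456 and 0.720 for the time points (edgeR).

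Lights off (ZT12) was compared with lights on (ZT0). ZT12 was sequenced on lane 3 and ZT0 on lane 2, so lane and time of day cannot be told apart here. Of the 24 genes, 9 were lower at ZT12 (edgeR), against 8.15% of all genes, and none was higher, against 7.71% (1 of 24 at an unadjusted p under 0.05, and none with DESeq2). The 9 were both rRNAs, mt-Ti, mt-Nd6 and all 5 minus-strand tRNA genes tested. Among them, mt-Tq, mt-Tp and mt-Ts1 had no cosine component beside lane (edgeR, adjusted p = 0.729, 0.220 and 0.139), and the others had one. The log2 fold changes were -1.38 ± 0.18 (SE) for mt-Rnr2, -1.11 ± 0.15 for mt-Rnr1, -0.80 ± 0.23 for mt-Nd6 and between -2.06 and -2.70 for the minus-strand tRNAs mt-Ts1, mt-Te, mt-Tq, mt-Tp and mt-Ty. Of these, mt-Ty passed the expression filter only through the mice of ZT0, the higher side of this comparison (8 genes were lower without it). mt-Ts1, among these 8, reached the filter's minimum in 5 libraries, 2 of ZT0 and 0 of ZT12. Without those of ZT0 it had fewer than the filter needs. The values of mt-Ty and mt-Ts1 are therefore descriptions. Without replicate 1 of ZT0, mt-Nd6 (edgeR, adjusted p = 0.0206 with all libraries) and mt-Ts1 (0.0197) were no longer called, nor was mt-Nd6 without replicate 4 of ZT12. For the 12 plus-strand mRNAs no such difference was called, and mt-Nd5 had a log2 fold change of 0.26 ± 0.13 (SE, with edgeR's adjusted p = 0.159). White adipocyte markers summed to 906 to 991 CPM at ZT0 and 1040 to 1228 CPM at ZT12, without overlap. The sums of brown adipocyte, muscle, blood and lymphoid markers overlapped between these times. The part of these cells in this contrast was not tested.

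Within single lanes, where time points can be compared without a change of lane, 5 of 24 genes differed on lane 2, against 13.3% of all genes tested there. These were mt-Rnr1, mt-Rnr2, mt-Te, mt-Tp and mt-Ty, the last of which passed the expression filter through ZT0 alone, so that 4 rest on genes that ZT0 did not select. On lane 3, 3 of 22 differed (mt-Rnr1, mt-Rnr2 and mt-Ti), against 1.93%, and on lane 4, 5 of 22 (mt-Rnr1, mt-Rnr2, mt-Nd1, mt-Nd2 and mt-Nd5), against 4.48%. The lane 3 call of mt-Ti (edgeR, adjusted p = 0.0185) was lost with muscle markers as a covariate (0.0765) and without replicate 4 of ZT15 (0.0836). Leaving out 1 library at a time, the count on lane 4 was 1 without replicate 1, 2 or 4 of ZT18, 2 without any one replicate of ZT21 and 3 without replicate 3 of ZT18. On lane 2 it was 3 without replicate 1 or 2 of ZT0 or replicate 3 of ZT6. Without the 5 libraries highest in muscle markers, 3 genes differed on lane 2 and 1 on lane 4. With a replicate block 0 differed on lane 4, and in a fit of all 32 libraries 5 differed on lane 3.

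The tRNA genes differed in whether they received counts at all. All 8 tRNA genes without at least 30 bases free of another annotated gene on the same strand at either end had 0 or 1 summed counts. Of the 14 tRNA genes with such a flank, 10 had at least 10 counts, and the exceptions were mt-Tf and mt-Tn with 0, mt-Tc with 1 and mt-Td with 3. The flank of 30 bases was chosen after the counts were seen, and its part in the counts was not tested.

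Variation among mice of the same time point was shared by some of the genes. Deviations of log2 CPM from the time-point mean were compared between mt-Nd1 and 5 other genes over 32 mice, permuting mice within time points (two-sided, 100000 resamples, adjusted over the 5). mt-Nd1 varied with mt-Cytb at r = 0.769 and rho = 0.718 (permutation p = 3e-05 and 6e-05, adjusted 0.00015 and 0.0003), and r was 0.720 without the 2 mice farthest from the median of mt-Nd1. Within lanes 2, 3 and 4, r was 0.838, 0.775 and 0.734 (exact permutation p = 0.00159, 0.015 and 0.0747, adjusted 0.00265, 0.0752 and 0.373). With mt-Nd6, on the opposite strand, r was 0.579 and rho 0.541 (permutation p = 0.00187 and 0.00482, adjusted 0.00467 and 0.012) and 0.540 without those 2 mice. It was 0.882, 0.635 and -0.242 within lanes 2, 3 and 4 (adjusted exact permutation p = 0.00265, 0.117 and 0.477), so that the relation passed on lane 2 alone.

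With mt-Co1, r was 0.467 and rho 0.460 (permutation p = 0.0238 and 0.0241, adjusted 0.0298 and 0.0319), and without the 2 farthest mice r was 0.412 and no longer passed (adjusted permutation p = 0.0663). By lane it was 0.914, 0.209 and 0.300. With Ucp1, the nuclear gene for the uncoupling protein, r was 0.487 and rho 0.461 (permutation p = 0.0164 and 0.0255, adjusted 0.0273 and 0.0319), and it no longer passed either without the 2 farthest mice (r = 0.446, adjusted permutation p = 0.0663). Its r by lane was 0.402, 0.540 and 0.508, none past the threshold. With mt-Rnr2 no relation was detected (r = -0.264 and rho = -0.247, permutation p = 0.243 and 0.257, adjusted 0.243 and 0.257; r by lane -0.291, -0.030 and -0.496; r = -0.081 without the 2 farthest).

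Nuclear genes that serve these transcripts were examined by list. Of 44 nuclear genes for mitochondrial transcription, replication and RNA maintenance, 17 had a 24 h cosine component (edgeR), against 36.1% of all genes, 5 had one beside lane, against 17.2%, and 9 were higher at ZT18 than at ZT6, against 8.18%, with a median log2 fold change of 0.12 against 0.00 over all genes. Fastkd5, which takes part in processing of mitochondrial precursor RNA, had its fitted peak at ZT17.4 and means from 2.96 ± 0.313 CPM at ZT3 to 7.05 ± 1.09 CPM at ZT0 (SD, n = 4 each; edgeR, adjusted p = 0.00112, and 0.000158 beside lane). Twnk, the mitochondrial DNA helicase, had its fitted peak at ZT18.0, while its measured mean was highest at ZT0 (28.2 ± 3.27 CPM, against 27.4 ± 1.96 CPM at ZT18; edgeR, adjusted p = 0.00115, and 0.00154 beside lane). Polg, the mitochondrial DNA polymerase, had an amplitude of 0.11 on the log2 scale and its fitted peak at ZT12.0 (edgeR, adjusted p = 0.000508), but did not pass beside lane (0.270). Of 24 nuclear-encoded subunits of the respiratory complexes and ATP synthase, 5 had a cosine component (edgeR), against 36.1% of all genes, and none had one beside lane (1 of 24 at an unadjusted p under 0.05). The median log2 fold change between ZT18 and ZT6 was 0.07.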

How the data were processed

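RNA of iBAT from 32 mice was sequenced from stranded libraries as paired reads of 100 bases. As stated by the study and in the submitters' processing notes, the authors mapped reads to mm10 with GSNAP and counted them per gene with HTSeq version 0.6.1. The deposited values are raw counts, not normalized. Treatment of reads with several matches and the strand setting are not given in the sources used here. All 32 sample columns were used (0 left unmapped).

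Genes were filtered by filterByExpr and scaled by TMM (edgeR 4.0.16, R 4.3.3). The main tests were edgeR's quasi-likelihood tests of 24 h cosine terms, time points, cosine terms beside lane, time points within a lane, and the contrasts of ZT18 with ZT6 and ZT12 with ZT0. Adjustment was by Benjamini-Hochberg over all genes. JTK_CYCLE (periods of 21 and 24 h, 15 templates) was coded anew and run on CPM. Peaks and amplitudes were fitted to log2 CPM (prior count 2). DESeq2 1.42.0, other scalings, no filter, a replicate block and leaving out libraries were alternatives, and muscle markers as covariate or exclusion were added after seeing the data. Scripts were tested on simulated data. The 48 pairs of libraries of the same time point all differed by more than sampling noise. P-values measure the spread between mice, not the spread between lanes.

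Gene positions and sequences came from GRCm38 (GENCODE transcripts), the assembly of mm10. Every rRNA and protein-coding gene is named, tRNAs where they were among the 3 with most counts, passed the cosine or time-point test or stood in a group of 5 or fewer, nuclear copies the 5 with most counts, and of the list for mitochondrial transcription the 3 with the lowest adjusted p. Gm28437 and Gm28438 are shown beyond this rule, chosen after their values were seen. The genes, lists and contrasts were chosen with earlier results of these data known. One gene of that list of 45 was not matched by symbol.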

Additional observations from a re-analysis of the deposited data

Results flagged for a closer look

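For the 15 rRNA and mRNA genes and the share of counts in the 25 genes, the 4 mice of each time point were searched for a mouse far from the other 3 (Dixon's test, 128 groups). Chance flags about 1 in 20 groups, and 7 were found. At ZT15, replicate 2 had 21361 CPM of mt-Nd1, above the 18969 to 19156 CPM of the other mice. At ZT0, replicate 1 had 65844 CPM of mt-Cytb and 71.5 CPM of mt-Co2, where the others had 52980 to 55008 CPM and 45.5 to 47.8 CPM. At ZT9, replicate 4 had 59.8 CPM of mt-Co3 and 5.80 CPM of mt-Nd4l, where the others had 43.1 to 44.6 CPM and 2.62 to 3.07 CPM. At ZT6, replicate 2 had 2.60 CPM of mt-Nd4l, below the 3.14 to 3.23 CPM of the others. At ZT15, the 25 genes took 26.7% of the counts of replicate 1 and 22.8% to 23.3% in the others, and this library also had the highest sum of muscle markers, at 7312 CPM.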

How the results depend on the processing

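Counts of genes stayed within 1.5 times under library size alone, DESeq2 size factors, TMM on nuclear genes, scaling by mitochondrial counts, no filter, a single 24 h period and DESeq2, wherever each was run, except as follows. In a fit of all 32 libraries, 5 in place of 3 genes differed on lane 3. Without the 5 libraries highest in muscle markers, 3 in place of 5 genes differed on lane 2 and 1 in place of 5 on lane 4, in fits of fewer samples. Same-numbered libraries did not deviate together (112 pairs, r from -0.726 to 0.767, median -0.119, 4 of 32 libraries closest to their own number), so the replicate number pairs nothing. With the replicate block 17 genes had a cosine component, the same number as without it, while on lane 4 the count was 0 in place of 5 (edgeR, adjusted p = 0.0570 for mt-Rnr1 and 0.0659 for mt-Rnr2). The block also ended the calls of mt-Rnr1 on lane 2 (0.0640), mt-Ty beside lane (0.0664) and mt-Ty between ZT18 and ZT6 (0.0616).

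Leaving out 1 library at a time gave 16 to 18 oscillating genes (JTK), 16 to 19 with a cosine component, 19 to 20 differing between time points, 6 to 8 beside lane, 3 to 6 on lane 2 (3 without replicate 1 or 2 of ZT0 or 3 of ZT6), 2 to 3 on lane 3, 1 to 3 on lane 4 (fewer than the 5 of all libraries whichever was left out), 11 to 15 for ZT18 against ZT6 and 8 to 9 for ZT12 against ZT0. Scaled by mitochondrial counts, the log2 fold changes of mt-Co1 and mt-Nd4 between ZT18 and ZT6 turned to 0.046 and 0.032. Of the relations with mt-Nd1, r with mt-Cytb was 0.775 on lane 3 and 0.734 on lane 4, with mt-Nd6 0.635 and -0.242, with mt-Co1 0.209 and 0.300 and with Ucp1 0.540 and 0.508, none past the threshold after adjustment. The last was 0.402 on lane 2, and without the 2 farthest mice r was 0.412 with mt-Co1 and 0.446 with Ucp1. The cause of these changes was not tested. The depth limits the minus-strand tRNAs, with as few as 3 counts of mt-Te in a library.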
